A study of Mus musculus with 4 samples.

Results

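The genes described here form the insulin and insulin-like growth factor (IGF) pathway as a set of 10 genes: the adaptor Grb10, the ligands Igf1 and Igf2, the receptors Igf1r, Insr and Igf2r, the receptor substrates Irs1 and Irs2, and the binding proteins Igfbp2 and Igfbp5. They were matched by gene symbol among 22608 genes of the count table, and all 10 had enough reads to be among the 14090 genes tested. Grb10 was selected for its large decrease in the comparison reported here, so its decrease is given as values without a test. The other 9 genes were chosen as named components of the pathway.

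Polyadenylated RNA was sequenced from mouse neural stem cells (NSCs), cells of the embryonic cortex of CD-1 mice at E14.5 that can form neurons and glia. The cells were grown with EGF and FGF (20 ng/ml each), transduced with a pLKO.1 lentivirus expressing a short hairpin RNA (shRNA), selected with puromycin and then differentiated toward oligodendrocyte precursor cells (OPCs) for 3 days with the cytokine CNTF (20 ng/ml) and the thyroid hormone T3 (40 ng/ml). In the control group (2 libraries) the hairpin targeted luciferase, which mouse cells lack, and in the knockdown group (2 libraries) it targeted lnc-OPC, a long non-coding RNA. The comparison asks how depletion of lnc-OPC during this differentiation changes the transcriptome. Each library held between 46144779 and 50098577 reads in genes. Both knockdown libraries carried the same hairpin, so an effect of lnc-OPC and an effect of that hairpin on other transcripts cannot be told apart. The level of lnc-OPC was not analysed here, and the groups rest on the labels. The culture medium contained the supplements B27 and N2, which include insulin, in both groups.

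Insulin and the IGFs bind the receptor tyrosine kinases INSR and IGF1R, which phosphorylate the docking proteins IRS1 and IRS2 and so activate PI3K, Akt and mTOR. GRB10 is an adaptor that binds the activated receptors and dampens their signal, and mTOR complex 1 phosphorylates and stabilizes it. The mannose 6-phosphate receptor IGF2R takes IGF2 up for degradation, and secreted IGF binding proteins hold the ligands in the medium and control their access to the receptors. Grb10, Igf2 and Igf2r are imprinted in the mouse: in most tissues Grb10 and Igf2r are expressed from the maternal allele and Igf2 from the paternal allele, and in neurons Grb10 is expressed from the paternal allele. IGF signalling is known to promote the survival of oligodendrocyte lineage cells and myelin formation.

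Promoters are shown for Grb10, the gene around which the set was built, because its annotated starts lie in very different sequence. RefSeq gave promoter sequences for 9 of the 10 genes (14 promoters in GRCm38.p6, each 300 bases long, from 250 bases before to 50 bases after the start). The first Grb10 start lay in a window with 45 CpG dinucleotides, and 98.4% of the 32851 RefSeq promoters held at most as many. The second held 9 CpG dinucleotides (56.5% of promoters held at most as many), and the median promoter held 7. Capitals mark each CG, a dinucleotide at which DNA can be methylated. Methylation was not measured here.
Grb10 start 1 (chr11:12037371-12037670, minus strand): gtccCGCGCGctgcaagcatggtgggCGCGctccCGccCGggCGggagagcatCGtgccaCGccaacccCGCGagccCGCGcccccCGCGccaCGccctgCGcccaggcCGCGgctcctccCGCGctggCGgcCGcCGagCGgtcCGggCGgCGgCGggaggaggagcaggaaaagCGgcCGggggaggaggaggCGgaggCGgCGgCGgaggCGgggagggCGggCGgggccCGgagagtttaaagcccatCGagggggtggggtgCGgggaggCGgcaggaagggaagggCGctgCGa
Grb10 start 2 (chr11:12027922-12028221, minus strand): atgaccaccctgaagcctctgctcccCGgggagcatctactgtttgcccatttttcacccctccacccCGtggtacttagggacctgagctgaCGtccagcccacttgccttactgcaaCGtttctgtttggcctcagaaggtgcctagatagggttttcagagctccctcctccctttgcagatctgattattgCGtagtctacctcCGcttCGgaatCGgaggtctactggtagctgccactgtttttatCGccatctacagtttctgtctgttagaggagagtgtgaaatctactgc
The counts summed all transcripts of a gene, so the use of either start was not measured.

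Grb10 was expressed in every library and was low in both knockdown libraries. It was measured at 30.9 and 33.8 CPM in the control libraries and at 4.92 and 5.52 CPM in the knockdown libraries (CPM, counts scaled to a common library size after TMM scaling, which corrects for differences in RNA composition between libraries). These values came from 1553 and 1578 reads in the control and 241 and 273 reads in the knockdown libraries. Grb10 was selected for this gap between the groups. The mean fell from 32.3 ± 2.01 to 5.22 ± 0.428 CPM (SD, n = 2), 6.19-fold lower. Of the 14090 genes tested, 22 including Grb10 had a fitted decrease at least as large.

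Genes that mark the oligodendrocyte lineage moved in the same direction. Of 16 such markers 15 were lower in the knockdown libraries, Cspg4 was the exception, and their summed level was 3918 to 4076 CPM in the control libraries and 2472 to 2592 CPM in the knockdown libraries. Over all genes tested, 23.5% were called higher and 23.3% lower in this comparison, under the rule given below. Of 9 astrocyte markers 6 were higher, 2 were lower (S100b and Aqp4) and Aldh1l1 was not called. The sum of the 9 was 4515 to 4586 CPM in the control and 7331 to 7498 CPM in the knockdown libraries. Gfap made the largest part of this rise, from 700 and 772 CPM to 2301 and 2415 CPM. S100b fell from 19.4 and 17.4 CPM to 5.85 and 5.94 CPM. Of 8 neuron markers 4 were higher (Stmn2 and Rbfox3 among them) and 2 lower (Elavl3 and Dcx), and their sum, mostly of Mtap2, was 1077 to 1108 CPM against 1184 to 1203 CPM. The microglia markers stayed under 1 CPM in sum in every library (at most 0.971 CPM). In bulk RNA a smaller number of cells of a type and less RNA per cell cannot be told apart, and the part of the cell composition in the changes of the pathway genes was not tested.

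The genes whose profile over the 4 libraries was most like that of Grb10 were Tspan18 (a tetraspanin), Cldn19 (a claudin of tight junctions), Aim1, Gm98 (an older symbol of Myrf, the regulator of myelin genes) and Enpp6 (a choline phosphodiesterase of newly formed oligodendrocytes). Likeness was measured as the distance between log2 CPM profiles after each gene was centred on its mean, among the 9916 genes that averaged 10 CPM or more. Over so few libraries this distance depends mostly on the size of the change, so the search returns other genes with large decreases. Their fitted log2 fold changes ran from -2.82 (Tspan18) to -2.26 (Gm98), beside -2.63 for Grb10. The distance was 0.20 for Tspan18, which went from 18.9 and 21.8 CPM to 2.65 and 3.07 CPM. It was 0.21 for Cldn19 and 0.23 for Aim1, and larger for Gm98 (0.52) and Enpp6 (0.57). Gm98 went from 106 and 93.6 CPM to 22.8 and 18.9 CPM, and Enpp6 from 31.2 and 24.8 CPM to 5.49 and 3.88 CPM. Both are among the oligodendrocyte markers counted above. The same 5 genes came first when genes down to a mean of 5 CPM were admitted (11085 genes).

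**Figure D1:**
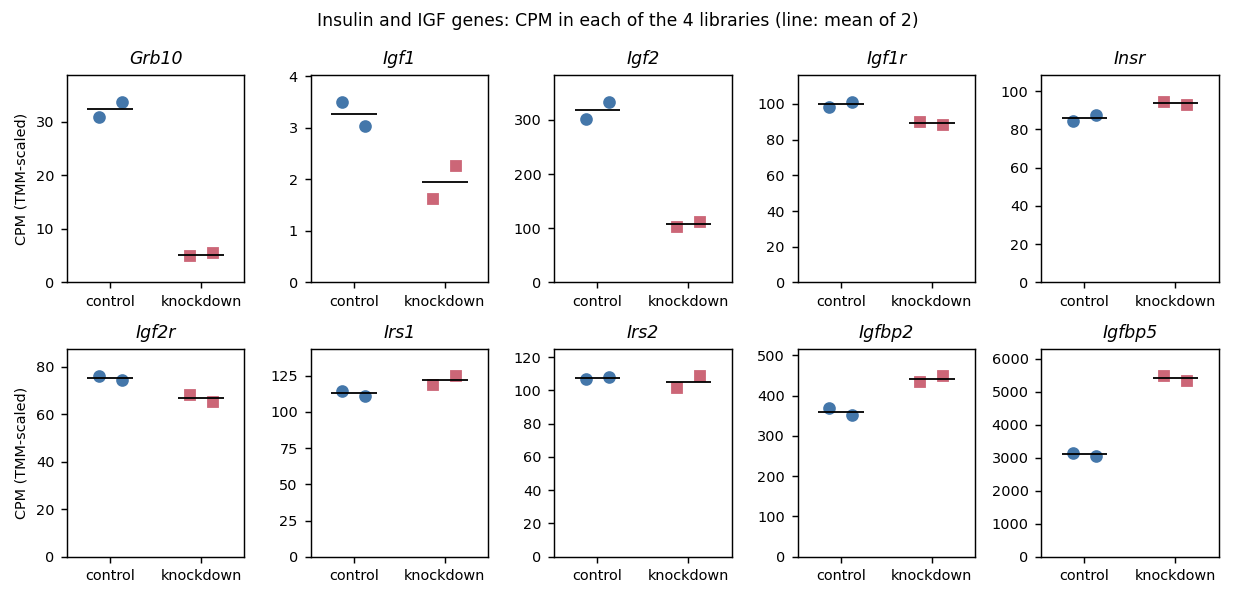
CPM of each of the 10 insulin and IGF genes in each library, with control as circles, knockdown as squares and a line at the mean of each pair; every vertical axis starts at 0. Grb10 and Igf2 lie far lower in both knockdown libraries (4.92 and 5.52 CPM for Grb10, 103 and 111 CPM for Igf2), Igfbp5 lies higher, and the receptor and substrate genes lie close together in the groups.

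Of the 9 genes other than Grb10, 4 were higher in the knockdown (Igfbp5, Igfbp2, Insr and Irs1), 4 were lower (Igf2, Igf1, Igf2r and Igf1r) and Irs2 was not called. A gene was called when edgeR's quasi-likelihood test gave an adjusted p (Benjamini-Hochberg, over all genes tested) under 0.05. Changes passed this threshold in much of the transcriptome: 23.5% of all tested genes were called higher and 23.3% lower. The groups did not overlap for 8 of the 9 genes other than Grb10, against 72.6% of all tested genes, so a lack of overlap is by itself common in these data. The changes differed in size, and those of Igf2 and Igfbp5 were much larger than those of the receptors and substrates. With libraries scaled by their totals alone, without TMM, 2 of the 9 were higher (Igfbp5 and Igfbp2) and 4 lower, and the median of all genes shifted to -0.03 on the log2 scale. The p-values rest on 2 libraries per group, labelled biological replicates.

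Both ligands fell. Igf2, the growth factor of the fetus, was measured at 302 and 334 CPM in the control and at 103 and 111 CPM in the knockdown libraries. The knockdown libraries were both far below both controls. The mean fell from 318 ± 22.2 to 107 ± 5.79 CPM (SD, n = 2), 2.97-fold lower (log2 fold change -1.57, SE 0.05, edgeR adjusted p = 5.4e-11).

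Igf1, the ligand best known for its action on myelinating cells, was near the lower end of what was measured, with 176 and 142 reads in the control and 79 and 112 reads in the knockdown libraries. This corresponded to 3.50 and 3.04 CPM against 1.61 and 2.26 CPM, with both knockdown libraries below both controls. The change was 1.69-fold (log2 fold change -0.76, SE 0.21, 95% interval -1.18 to -0.34, edgeR adjusted p = 0.00285). The call was lost without control replicate 1 (log2 fold change -0.65, edgeR adjusted p = 0.0865) and without knockdown replicate 1 (-0.53, edgeR adjusted p = 0.0620). Insulin itself was not detected: Ins1 and Ins2 had 0 reads in all 4 libraries, where 3 reads would correspond to 0.0597 to 0.0642 CPM.

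Markers of mural and endothelial cells, which express Igf2 in the brain, also had a lower sum in the knockdown (498 to 527 CPM in the control libraries and 234 to 237 CPM in those of the knockdown, over 12 markers of which 4 were called lower and 1 higher). This sum came mainly from Acta2, Kdr, Tagln and Cspg4, the last of which is also an OPC marker. Pdgfrb, the receptor that marks mural cells, was detected in every library and fell the most of the list, from 9.48 and 8.00 CPM to 0.367 and 0.485 CPM (476 and 374 reads against 18 and 24 reads, 20.4-fold lower, edgeR adjusted p = 4.51e-18). Kcnj8 was the marker called higher, at few reads (9 and 6 reads against 27 and 38 reads, 4.21-fold, edgeR adjusted p = 0.00133). Cspg4 was not called (edgeR adjusted p = 0.0628). The defining endothelial genes Cdh5 and Cldn5 had 0 reads in every library, and Tie1 and the mural gene Abcc9 had fewer than 3. The 8 fibroblast and meningeal markers summed to 135 to 136 CPM in the control and 110 to 120 CPM in the knockdown libraries, mostly from Pdgfra, which also marks OPCs and was called lower. Thy1, which neurons also express, was called higher, Col1a1 (24 and 25 reads against 17 and 15 reads) and Fbln1 were detected and not called, Dcn and Lum had 0 reads in every library, and Col1a2 and Col3a1 had fewer than 3. The part of these cells in the change of Igf2 was not tested.

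The receptors changed little. Igf1r, which binds both IGFs, was at 98.1 and 101 CPM in the control and at 90.0 and 88.3 CPM in the knockdown libraries, and it was 1.12-fold lower (log2 fold change -0.16, SE 0.04, edgeR adjusted p = 0.00054). Igf2r was at 76.1 and 74.4 CPM against 68.1 and 65.3 CPM, 1.13-fold lower (log2 fold change -0.17, SE 0.04, edgeR adjusted p = 0.000771). For both genes every knockdown library was below every control library, and the calls held under all 10 other settings that were run.

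Insr moved the other way. The insulin receptor gene was at 84.6 and 87.7 CPM in the control and at 94.5 and 92.9 CPM in the knockdown libraries, 1.09-fold higher without overlap (log2 fold change 0.12, SE 0.04, edgeR adjusted p = 0.00802). This call was lost with library totals alone (log2 fold change 0.09, edgeR adjusted p = 0.0623), without control replicate 1 (0.10, edgeR adjusted p = 0.109) and without knockdown replicate 1 (0.11, edgeR adjusted p = 0.0640).

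The substrates stood at similar levels in both groups. Irs1 was at 115 and 111 CPM in the control and at 119 and 125 CPM in the knockdown libraries, 1.08-fold higher with a gap between the groups that was narrow (log2 fold change 0.11, SE 0.04, edgeR adjusted p = 0.0111). Its call was lost with library totals alone (log2 fold change 0.07, edgeR adjusted p = 0.0914), without control replicate 2 (0.09, edgeR adjusted p = 0.151) and without knockdown replicate 2 (0.07, edgeR adjusted p = 0.216). Irs2 was at 107 and 108 CPM in the control and at 102 and 109 CPM in the knockdown libraries, so that the knockdown libraries lay on either side of the controls. Its log2 fold change was -0.03 with a 95% interval of -0.11 to 0.04 (edgeR adjusted p = 0.473).

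The promoters of Irs1 and Irs2 are printed because, among the promoters of the set that were searched, only these held CAAAACA, the core word of insulin response sequences at which FoxO factors can bind. It was searched on both strands and was found in 6.28% of all RefSeq promoters, 2 times in that of Irs1 and 1 time in that of Irs2. Capitals mark its reverse complement, as it reads on the strand of the gene.
Irs1 (chr1:82291390-82291689, minus strand): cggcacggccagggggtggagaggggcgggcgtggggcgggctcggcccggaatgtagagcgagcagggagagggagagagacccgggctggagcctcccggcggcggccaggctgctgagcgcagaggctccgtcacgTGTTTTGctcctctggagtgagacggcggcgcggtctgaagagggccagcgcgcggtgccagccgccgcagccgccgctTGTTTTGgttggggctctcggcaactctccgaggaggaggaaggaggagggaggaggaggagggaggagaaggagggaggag
Irs2 (chr8:11008880-11009179, minus strand): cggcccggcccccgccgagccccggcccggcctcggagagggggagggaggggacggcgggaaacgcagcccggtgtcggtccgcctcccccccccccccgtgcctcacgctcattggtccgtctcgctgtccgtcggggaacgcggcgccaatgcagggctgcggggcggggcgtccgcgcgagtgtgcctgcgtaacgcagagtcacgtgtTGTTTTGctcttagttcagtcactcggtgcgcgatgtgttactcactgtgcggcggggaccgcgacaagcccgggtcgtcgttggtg
A match of letters is a description and no evidence of binding. The FoxO word GTAAACA, found in 3.65% of all promoters, had no match in any of the 14 promoters.

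**Figure D2:**
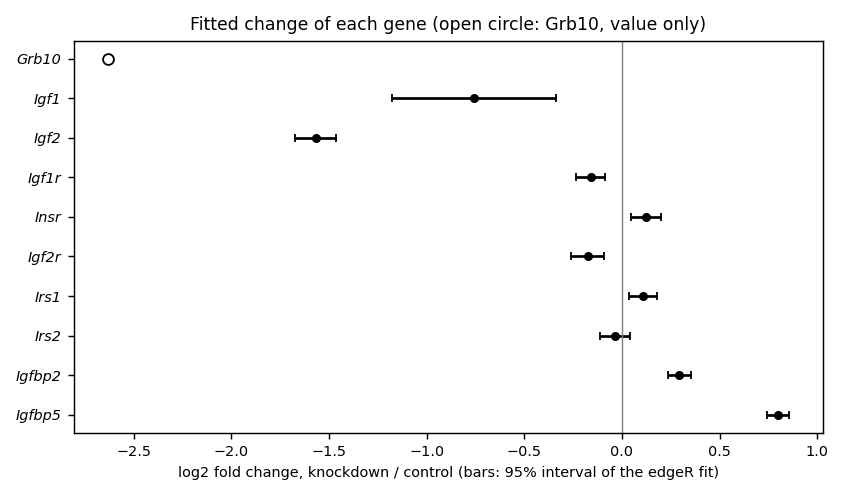
Fitted log2 fold change of knockdown over control for the 10 genes, with 95% intervals of the edgeR fit and Grb10 as an open circle without interval. Igf2 (-1.57) and Igf1 (-0.76) lie left of 0, Igfbp5 (0.80) and Igfbp2 (0.29) right of it, and the receptors and substrates within 0.17 of 0.

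The binding proteins rose. Igfbp5, which binds to extracellular matrix, was measured at 3157 and 3062 CPM in the control and at 5485 and 5340 CPM in the knockdown libraries. Both groups were tight, and the gap between them was many times the spread within either. The mean rose from 3109 ± 67.0 to 5413 ± 103 CPM (SD, n = 2), 1.74-fold (log2 fold change 0.80, SE 0.03, edgeR adjusted p = 2.27e-22). Igfbp2, its direct neighbour on chromosome 1, was at 368 and 351 CPM in the control and at 434 and 449 CPM in the knockdown libraries, 1.23-fold higher (log2 fold change 0.29, SE 0.03, edgeR adjusted p = 5.01e-10). Both changes stayed past the threshold under all 10 other settings. Astrocyte markers, given above, rose in sum as well, with Gfap the largest part of that rise and S100b and Aqp4 lower. The part of astrocytic cells in the rise of Igfbp2 and Igfbp5 was not tested.

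The promoter of Igfbp5, whose change had the smallest p of the 9 genes tested beside Grb10, held the TATA-like word TATTTAA (in capitals), which 4.51% of all promoters hold on either strand. No other promoter of the set had this word, and none had TATAAA (13.6% of all promoters). The E-box CAGCTG, present in 16.3% of all promoters, was found 1 time, in that of Igf1.
Igfbp5 (chr1:72874816-72875115, minus strand): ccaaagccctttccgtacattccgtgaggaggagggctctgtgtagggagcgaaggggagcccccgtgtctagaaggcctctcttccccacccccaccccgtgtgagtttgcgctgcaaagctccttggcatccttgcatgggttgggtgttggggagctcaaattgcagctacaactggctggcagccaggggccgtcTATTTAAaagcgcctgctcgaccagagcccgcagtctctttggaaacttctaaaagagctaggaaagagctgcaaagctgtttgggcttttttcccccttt

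Levels of different genes were compared per length, here that of all exons annotated for a gene joined together. This length can exceed that of the transcripts present, so close ranks depend on the annotation. Per kilobase of exon (GENCODE M21), Igfbp5 was by far the most abundant gene of the set, at 518 CPM per kb in the control mean and 901 CPM per kb in the knockdown mean. Igfbp2 followed (195 and 239 CPM per kb), then Igf2 (55.6 and 18.7 CPM per kb). The substrates and receptors came next, from Irs2 (17.0 and 16.6 CPM per kb) through Irs1 (12.3 and 13.3), Igf2r (8.08 and 7.17) and Insr (6.26 and 6.82) to Igf1r (5.93 and 5.31 CPM per kb). Grb10 lay below the receptors it binds (3.56 and 0.574 CPM per kb), and Igf1 was the lowest (0.330 and 0.196 CPM per kb). The order of the means was the same in both groups.

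Other ligands, receptors and substrates of the family were mostly silent. Ins1, Ins2, Insl3 and Insrr had 0 reads in all 4 libraries and Irs3 at most 2 in any. Irs4, a substrate of little expression in most tissues, was low but rose from 0.876 and 0.770 CPM to 1.88 and 2.65 CPM (44 and 36 reads against 92 and 131 reads). The change was 2.74-fold (edgeR adjusted p = 4.47e-05). Insl6, a relaxin-like peptide gene outside the rule for named genes, is given because it was the only other gene tested of the 7 listed. It was expressed in every library, at 9.58 and 9.10 CPM in the control and 8.73 and 8.94 CPM in the knockdown libraries. Insl6 was not called (edgeR adjusted p = 0.553).

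The remaining binding proteins, their proteases and the Igf2bp genes, which encode proteins that bind Igf2 mRNA, moved in both directions. Of 15 listed genes 11 were tested, of which 3 rose (27.3%), 4 fell (36.4%) and 4 were not called. Over all genes tested, 23.5% were called higher and 23.3% lower. The median log2 fold change of the list was -0.02, against 0.0020 over all genes. Igfbp3, the main carrier of IGFs in serum, rose from 511 and 485 CPM to 635 and 659 CPM, 1.30-fold (edgeR adjusted p = 1.32e-12). Igfbp7 rose 1.34-fold (edgeR adjusted p = 8.16e-05) and Igfbpl1 rose 1.23-fold (edgeR adjusted p = 6.44e-07).

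Igfbp4, which mainly inhibits IGF action, went against these. It fell from 47.3 and 50.4 CPM to 26.2 and 31.0 CPM, 1.71-fold lower (edgeR adjusted p = 5.96e-11). Htra1, a secreted protease that cleaves IGF binding proteins, was 1.54-fold lower (edgeR adjusted p = 3.2e-11). Stc1, a stanniocalcin, was 1.88-fold lower at a low level (1.85 and 1.43 CPM against 0.857 and 0.890 CPM, edgeR adjusted p = 0.0110), and its call was lost without control replicate 1 (edgeR adjusted p = 0.161). Igfbp6, chosen after its values were seen to complete the family, was rare (0.175 and 0.386 CPM on average) and was not called (edgeR adjusted p = 0.102). Igfbp1 had 1 read in all. Of the mRNA-binding proteins, likewise given after their values were seen, Igf2bp3 fell by 0.27 on the log2 scale (edgeR adjusted p = 1.47e-05), Igf2bp2 was not called and Igf2bp1 had 1 read in all.

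**Figure D3:**
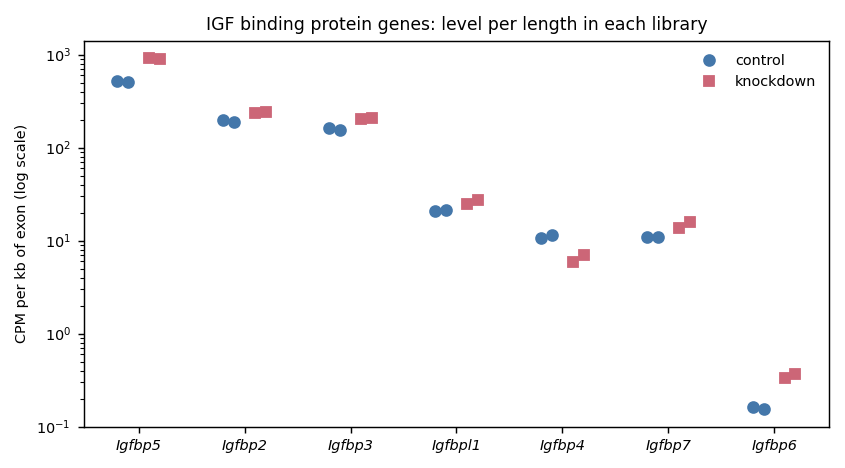
CPM per kilobase of exon, on a log axis, for 7 IGF binding protein genes in each library, with control as circles and knockdown as squares. The levels span from 518 CPM per kb for Igfbp5 in the control mean to 0.158 CPM per kb for Igfbp6; Igfbp4 is lower in the knockdown, and the others lie higher, Igfbp6 without a call.

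Adaptors and phosphatases that act at the receptors changed in both directions. Of 22 tested 5 rose (22.7%), 8 fell (36.4%) and 9 were not called (median log2 fold change -0.04), against 23.5% higher and 23.3% lower over all genes. Grb14, the closest relative of Grb10 and likewise an inhibitor of the insulin receptor, was at 39.4 ± 1.51 CPM in the control and at 38.8 ± 0.667 CPM in the knockdown (SD, n = 2). It was not called, and its 95% interval ran from -0.13 to 0.09 on the log2 scale (edgeR adjusted p = 0.790). Per kilobase of exon Grb14 was at 5.48 CPM per kb in the control mean and 5.40 CPM per kb in the knockdown mean, whereas Grb10 was at 3.56 and 0.574 CPM per kb.

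Gigyf1, Gigyf2 and Nedd4, which encode proteins known to bind GRB10, each fell by a small amount. Gigyf1 and Gigyf2, named for their interaction with GRB10, went from 48.3 to 38.8 CPM (1.24-fold lower, edgeR adjusted p = 2.98e-06) and from 140 to 120 CPM (1.16-fold lower, edgeR adjusted p = 1.42e-06) on average. Nedd4, a ubiquitin ligase that works with GRB10 on the IGF1 receptor, went from 1860 and 1810 CPM to 1724 and 1690 CPM, 1.08-fold lower (edgeR adjusted p = 0.00178). The larger changes of the list lay elsewhere. Dok5, a docking protein, rose 1.77-fold (edgeR adjusted p = 6.27e-13), and Shc3 (1.55-fold) and Sh2b1 (1.38-fold), which both carry receptor signals, rose as well, while the Shc family members Shc4 and Shc2 were 1.32-fold and 1.29-fold lower.

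Components downstream of the receptors showed no common direction. In the list of PI3K, Akt and FoxO genes 7 of 21 rose (33.3%), 6 fell (28.6%) and 8 were not called (median log2 fold change 0.01). Over all genes these shares were 23.5% and 23.3%. Phlpp2, a phosphatase that inactivates Akt, rose from 34.4 and 36.4 CPM to 55.9 and 54.1 CPM, 1.55-fold (edgeR adjusted p = 1.74e-12). The kinase gene Gsk3b was 1.14-fold lower. The catalytic PI3K subunits Pik3ca and Pik3cb were 1.12-fold and 1.11-fold lower, and the call of Pik3cb was lost in 4 of 10 other settings (edgeR or DESeq2 adjusted p up to 0.0894). The counts of the list also depended on the setting: DESeq2 called 4 higher and 3 lower.

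Among 22 genes of the mTOR complexes and their targets 6 rose (27.3%), 8 fell (36.4%) and 8 were not called (median log2 fold change -0.02). Over all genes these shares were 23.5% and 23.3%. Rictor, the defining subunit of mTOR complex 2, was 1.29-fold lower (edgeR adjusted p = 1.25e-08). Ddit4, a stress-induced inhibitor of mTOR complex 1, was 1.29-fold lower as well, and Sesn2, another inhibitor, was 1.30-fold higher. Eif4ebp1, the translation repressor that mTOR complex 1 inactivates, rose 1.38-fold. Of the glucose transporters, the neuronal form Slc2a3 rose 1.56-fold (edgeR adjusted p = 6.32e-10), and the insulin-regulated form Slc2a4 was 1.41-fold lower (11.7 and 10.8 CPM against 7.97 and 8.05 CPM).

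**Figure D4:**
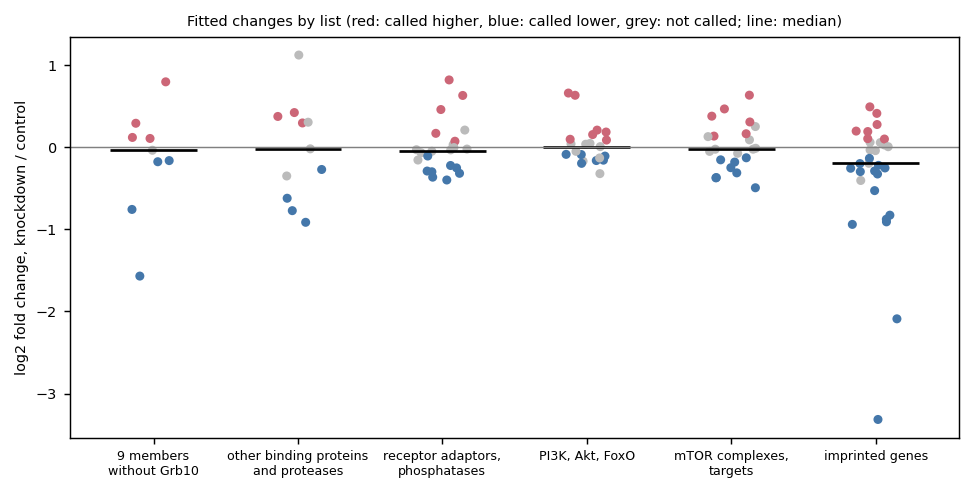
Fitted log2 fold change of each tested gene in the 9 members other than Grb10 and in 5 lists of related genes, red where called higher, blue where called lower and grey where not called, with a line at the median of each list. The medians lie between -0.19 (imprinted genes) and 0.01 (PI3K, Akt and FoxO); the lowest points are imprinted genes.

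Imprinted genes were listed because Grb10, Igf2 and Igf2r belong to them. Of 30 tested imprinted genes other than these, 15 fell (50%), 7 rose (23.3%) and 8 were not called. Over all genes tested, 23.3% were called lower and 23.5% higher. The median log2 fold change of the list was -0.19, against 0.0020 over all genes. H19, the maternally expressed non-coding RNA next to Igf2, was at 3478 and 3743 CPM in the control and at 1840 and 2011 CPM in the knockdown libraries, 1.88-fold lower (log2 fold change -0.91, SE 0.05, edgeR adjusted p = 4.11e-07). Thus Igf2 and H19, which are expressed from opposite parental alleles, were both lower.

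Smaller changes were fitted for some genes further along the Igf2 region on chromosome 7. Cdkn1c (log2 fold change -0.22, edgeR adjusted p = 0.00544), Kcnq1ot1 (-0.20, edgeR adjusted p = 0.0150) and Cd81 (-0.04, edgeR adjusted p = 0.260), chosen after their values were seen because they lie in this region, had smaller fitted changes than Igf2 (-1.57) and H19. The call of Kcnq1ot1 was lost in 3 of 10 other settings, by DESeq2, without control replicate 2 and without knockdown replicate 1 (adjusted p up to 0.307). With library totals alone Cd81 was called lower (edgeR adjusted p = 0.0239).

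Igf2as, an antisense transcript that overlaps Igf2 and was likewise chosen after its values were seen, was 2.66-fold lower (154 and 137 reads against 69 and 42 reads, edgeR adjusted p = 1.00e-05). The library kit does not mark strand, so reads of Igf2 and of its antisense transcript cannot be told apart where they overlap. This also holds for Igf1 with Igf1os and for Igf2r with Airn.

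Genes of the Dlk1 region on chromosome 12 fell together. Dlk1, a paternally expressed inhibitor of differentiation, fell from 4.00 and 3.32 CPM to 0.326 and 0.404 CPM, 9.96-fold lower (201 and 155 reads against 16 and 20 reads, edgeR adjusted p = 5.8e-12). The maternally expressed non-coding RNA Rian was 1.92-fold lower (edgeR adjusted p = 1.78e-06). Its neighbour Meg3, given here after its values were seen, was 1.83-fold lower (edgeR adjusted p = 5.44e-10). Mirg, of the same region, had too few reads to be tested. Asb4, from another imprinted region, was 4.26-fold lower at a low level (104 and 106 reads against 19 and 31 reads, edgeR adjusted p = 1.04e-06). Sgce (1.41-fold), Plagl1 (1.33-fold) and Gnas (1.21-fold) were the largest increases of the list, and Plagl1 encodes a zinc finger factor known to activate imprinted genes.

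Airn, the antisense transcript that silences Igf2r on the paternal allele, was at 2.71 and 1.73 CPM in the control and at 1.65 and 1.72 CPM in the knockdown libraries. Both knockdown libraries lay just below the lower control, and Airn was not called (log2 fold change -0.40, edgeR adjusted p = 0.171).

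The genes around Grb10 on chromosome 11 did not share its decrease as a group. Ddc, the enzyme that makes dopamine and serotonin and the imprinted neighbour of Grb10, was the gene called lower: it went from 47 and 40 reads to 10 and 8 reads (0.936 and 0.856 CPM against 0.204 and 0.162 CPM), 4.85-fold lower (edgeR adjusted p = 0.000128). Cobl, an actin nucleator, and Fignl1, a DNA repair factor, had positive changes that were not called (log2 fold change 0.31, edgeR adjusted p = 0.130, and 0.24, edgeR adjusted p = 0.109). Both were called higher without knockdown replicate 2 (edgeR adjusted p = 0.0483 and 0.00773). Ikzf1, a lymphoid factor, had 0 reads in all 4 libraries, and Zpbp, a sperm gene, had between 2 and 16 reads and was not tested.

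**Figure D5:**
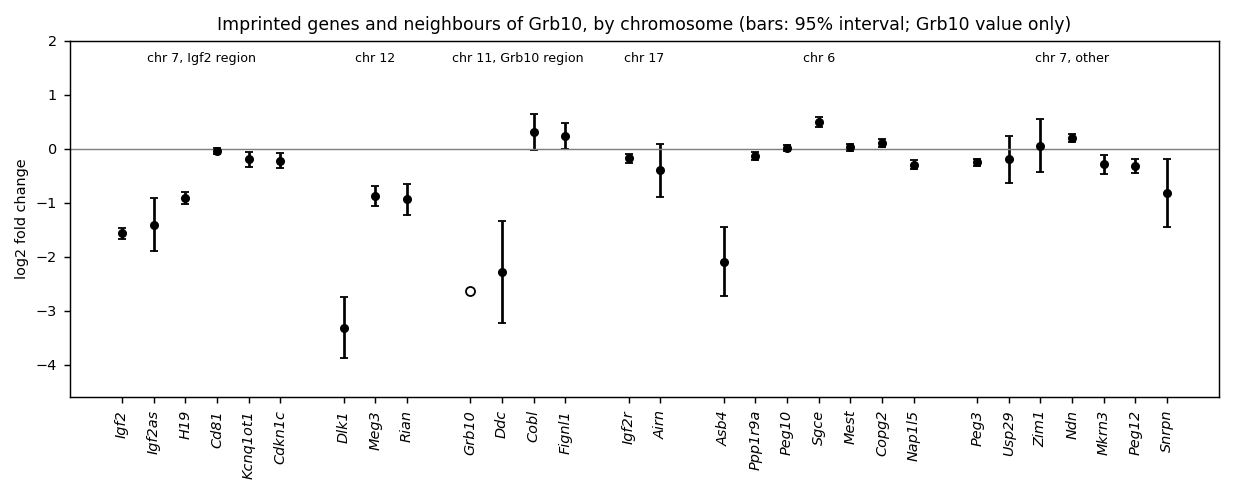
Fitted log2 fold change, with 95% intervals, of imprinted genes and neighbours of Grb10 grouped by chromosome, with Grb10 as an open circle without interval. Igf2, Igf2as and H19 in the Igf2 region, the 3 genes of the Dlk1 region, Ddc and Asb4 lie well below 0, and Cd81, Cobl and Fignl1 lie near or above it.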

How the data were processed

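The authors deposited raw read counts per gene for 4 libraries (2 control, 2 knockdown), made from paired-end reads of a TruSeq kit that does not mark strand, with 100 ng of RNA per library. Per the submitters' processing notes, TopHat 1.3.3, Bowtie 0.12.7, SAMtools 0.1.18, HTSeq 0.6.1, Cufflinks and DESeq were used on mm9; these notes name no annotation release, and the use of strand in counting was not given in the sources used here. The study's supplementary methods instead name mm10, later releases of TopHat and Bowtie and an iGenomes annotation for its paired-end RNA-seq; which of these settings made the deposited counts was not settled here. The reads outside genes (20.1% to 22.2% of listed reads), with several alignments (10.7% to 11.2%) or in several genes (0.43%) stayed out of library sizes and tests. Between 46144779 and 50098577 reads per library fell in genes, so the 2 libraries per group, more than depth, limit the precision except for genes with few reads. The authors' own comparison table (group means, fold changes and p-values) and their table of gene ontology terms were not used.

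Counts were analysed with edgeR 4.0.16 in R 4.3.3: filterByExpr (minimum count 10, minimum total 15), TMM, robust glmQLFit and glmQLFTest of knockdown against control over the 4 libraries without covariates, with Benjamini-Hochberg adjustment over 14090 genes. The SE of a change is its size divided by the square root of its F value. DESeq2 1.42.0 was run as an alternative, beside other scalings, other filters on low counts, a replicate block and each library left out. The procedure was also run on counts simulated from the means and dispersions fitted to these libraries. Far fewer genes were changed there than were called here, so that run is no support for the calls. Same-numbered libraries of the groups did not deviate together, and the replicates of a group differed by more than sampling noise. The genes and the lists of related genes were chosen with earlier results of these data known. Named genes are all 10 members, up to 3 called genes with the largest rise and 3 with the largest fall in each list (mean of at least 1 CPM), the 5 genes closest to Grb10 in pattern, the genes around Grb10, and Airn, H19, Ins2, Gigyf1, Gigyf2, Nedd4 and Grb14; others are said to be chosen after their values were seen. Some genes that the rule names are left out of the text. Promoters, exon lengths and gene neighbours come from annotations of GRCm38, used by gene symbol since the sources name different builds for the reads; no amino acid sequences were used.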

Additional observations from a re-analysis of the deposited data

Results flagged for a closer look

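Reads with more than 1 alignment, which no comparison above used, made up 11.2% and 11.1% of the listed reads in the knockdown libraries (mean 11.2%), above the 10.7% and 10.9% of the control libraries.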

How the results depend on the processing

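The alternatives were edgeR with DESeq2 size factors, library totals alone, DESeq2, no filter on low counts, a filter of at least 1 CPM in 2 libraries, a replicate block and leaving out each of the 4 libraries. For the 10 members, 90 of 100 such values kept their direction, with the call kept for tested genes and a size within 1 SE for Grb10. The size of the other members was not part of this check. That of Igf1, for example, ranged from -1.02 to -0.53 on the log2 scale. Grb10 moved to -2.72 on the log2 scale without knockdown replicate 2, and Igf1, Insr and Irs1 lost their calls as given above. Leaving out a library gave Irs2 a log2 fold change between -0.085 and 0.014, above 0 without knockdown replicate 1 (adjusted p = 0.851), and Grb14 between -0.059 and 0.019, above 0 without control replicate 2 (adjusted p = 0.839); neither was called in any setting. With library totals alone 2 members were higher in place of 4, and leaving out a library gave 3 higher and 3 to 4 lower. The PI3K, Akt and FoxO list had 4 genes higher with library totals alone and with DESeq2, in place of 7, and 3 lower with DESeq2, in place of 6. Leaving out a library gave 4 to 6 higher and 2 to 5 lower there, 4 to 6 imprinted genes higher in place of 7, and 0 to 2 genes higher around Grb10 in place of 0. With at least 1 CPM in 2 libraries 0 genes around Grb10 were lower in place of 1, since Ddc was then not tested. The replicate block paired libraries by replicate number. Deviations of same-numbered libraries correlated at 0.05375 over 2 pairs, too few to settle whether those libraries were made together. The block called 3404 genes higher and 3377 lower over all genes, in place of 3309 and 3276, and changed no call of the members. DESeq2 called 2608 higher and 2596 lower, and library totals alone 2677 and 3964. The causes of these shifts were not tested, and with 2 libraries per group small changes such as those of Insr and Irs1 rest on single libraries.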
